A study of Mus musculus with 28 samples.

Results

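The 45 genes described here encode the machinery that copies DNA and carries a cell into S phase. They were taken by symbol from the 47729 genes of the count tables. All 45 were found, and all 45 were among the 17299 genes that passed the filter on low counts. By role, 8 belong to origin licensing, 6 to helicase activation, 6 to the sliding clamp and its loader, 3 to single-strand binding, 9 to the polymerases and primase, 2 to the joining of Okazaki fragments, 5 to nucleotide supply, 3 to S phase entry and 3 to chromatin assembly and maintenance. The genes were grouped by their textbook roles.

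An origin of replication is licensed in G1, when Cdc6 and Cdt1 load the ring of Mcm proteins onto DNA, and it fires in S phase, when Cdc45 and the GINS complex turn that ring into an active helicase. Polymerases then copy both strands behind the fork, held on DNA by the clamp Pcna. Many of the genes are known targets of E2F factors, which the retinoblastoma protein restrains until cyclin E and its partner kinase inactivate it, and in skin the cells of the basal layer divide to renew the epidermis and to close wounds.

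RNA was sequenced from epidermal cells sorted from the skin of C57BL/6 mice by surface markers (Integrin A6+, B1+, Sca1+ and CD34-), a sort meant to enrich epidermal stem cells. Per the labels, all mice were female and 60 postnatal days old when a cream was applied for 6 days. The cream held imiquimod, an agonist of Toll-like receptor 7 that provokes a psoriasis-like inflammation, or was the control cream vanicream. Cells were taken at the end of the course (day 6), 30 days after it (day 30), or after wounding at day 30, with wounds harvested at 6 h or 12 h. This gave 8 groups of 2 libraries: day 6 imiquimod and day 6 control, day 30 imiquimod and day 30 control, 6 h wounds of post-imiquimod and of control skin, and 12 h wounds of post-imiquimod and of control skin. The labels do not say whether the 2 libraries of a group came from separate animals or from pools, so the p-values measure only the spread between these libraries. Levels are given as CPM, the usual read count relative to library size, here with TMM-scaled library sizes, and values of a pair are those of libraries 1 and 2. CPM is not corrected for transcript length, so levels are compared between libraries and never between genes.

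Library totals ran from 23623968 to 76993427 counts. Markers of basal keratinocytes summed to 30700 to 67900 CPM, with none of the 6 at 0 in any library. Cd34, the marker the sort excludes, reached 7.59 and 11.1 CPM in day 6 imiquimod skin and 2.83 and 7.66 CPM in day 6 control skin, against at most 2.08 CPM elsewhere. Both day 30 libraries numbered 1 went against their female label. Xist had 1 read in the imiquimod and 0 reads in the control library, where Y-linked genes had 6048 and 7847 reads. In each of the other 14 libraries Xist had 11484 reads or more, while Y-linked genes reached 13 reads at most. Counts that rest on day 30 are therefore also given without both libraries.

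The promoters of 37 of the 45 genes were in the RefSeq table (GRCm38.p6). In the 250 bases before the start, the E2F motif (TTTCCCGC, TTTCGCGC, TTTGCCGC or TTTGGCGC, on either strand, with overlapping matches counted separately) was found in 8 of the 37, which is 21.6%. The same letters occurred in 3.69% of the 11511 tested genes with a promoter and in 2.16% of all 27025 genes of the promoter table. The 8 genes were Cdc6, Mcm5, Mcm6, Mcm7, Gins3, Rfc3, Pola1 and Uhrf1, and origin licensing held 4 of them among its 7 genes with a promoter. Of 17 mitosis genes with a promoter, 1 held the motif (5.88%). The CCAAT box showed the other order, with 56.8% of the replication genes, 88.2% of the mitosis genes and 39.5% of tested genes, and the CHR element TTTGAA likewise, with 13.5%, 41.2% and 13%. These are matches of letters within a fixed window and not measured binding. The sequences below are those in which a match lies outside the annotated gene, up to the base before it, with the matches in capitals. They show how the motif sits in licensing genes, in a clamp loader gene and in a GINS gene, and they were chosen after their values were seen. Mcm5 lies at chr8:75109336-75109467 on the plus strand, Mcm6 at chr1:128359706-128359835 on the minus strand, Gins3 at chr8:95633498-95633558 on the plus strand and Rfc3 at chr5:151651209-151651268 on the minus strand.
Mcm5: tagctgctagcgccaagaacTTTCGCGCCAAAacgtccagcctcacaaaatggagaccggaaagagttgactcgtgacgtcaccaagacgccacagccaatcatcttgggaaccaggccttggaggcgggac
Mcm6: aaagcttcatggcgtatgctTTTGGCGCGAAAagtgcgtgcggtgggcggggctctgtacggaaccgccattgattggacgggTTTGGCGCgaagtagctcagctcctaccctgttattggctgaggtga
Gins3: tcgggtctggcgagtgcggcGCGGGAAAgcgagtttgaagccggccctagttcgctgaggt
Rfc3: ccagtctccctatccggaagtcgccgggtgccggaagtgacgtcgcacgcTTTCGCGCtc
Mcm5 and Mcm6 each carry a pair of matches on opposite strands that share their central bases, and Mcm6 has 1 more nearer the gene, so their promoters hold 2 and 3 matches. The promoters of Gins3 and Rfc3 hold 1 match each.

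Imiquimod at day 6 was compared with the control cream to describe the replication genes in inflamed skin. At day 6, 36 of the 45 genes were higher in imiquimod skin and none was lower (edgeR quasi-likelihood test, adjusted p under 0.05), against 21.6% of all tested genes called higher and 15% called lower. All 45 log2 changes were positive, with a median of 1.05, while the median of all tested genes was 0.10. The changes ran from 0.27 for Pold1 to 2.59 for Ccne1, and in 44 of the 45 genes both imiquimod libraries lay above both control libraries, as they did in 38.5% of all tested genes. In 30 genes both day 6 imiquimod libraries lay above the other 14 libraries of the series, as in 11.7% of all tested genes. The 9 genes that did not pass were Gins2, Gins3, Rpa1, Prim1, Pold1, Pole, Pole2, Dut and E2f1. Without library 2 of day 6 control, the lower of the pair for most of these genes, the count was 18. Markers of other cells moved with the treatment: the 8 macrophage markers summed to 49.8 and 56.6 CPM in imiquimod skin, against 13.2 and 7.24 CPM in control skin, and the 5 Langerhans and dendritic cell markers to 147 and 76.8 CPM, against 36.6 and 39.8 CPM. Of these 5, Cd74, H2-Aa and H2-Ab1, genes of MHC class II presentation, carried the sum, while the Langerhans marker Cd207 had 0.2 and 0.19 CPM in imiquimod skin and 0.283 and 0.601 CPM in control skin. The T cell list followed Thy1 alone, with 24.7 and 59.3 CPM in imiquimod skin and 143 and 76.7 CPM in control skin, and its other members were at 0 to 0.19 CPM. Mitochondrial transcripts took 7.65% and 1.8% of counts in imiquimod skin and 3.31% and 1.43% in control skin. Their part in the result was not tested. In such bulk samples, more cells in S phase cannot be told apart from more RNA of these genes per cell.

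**Figure D1:**
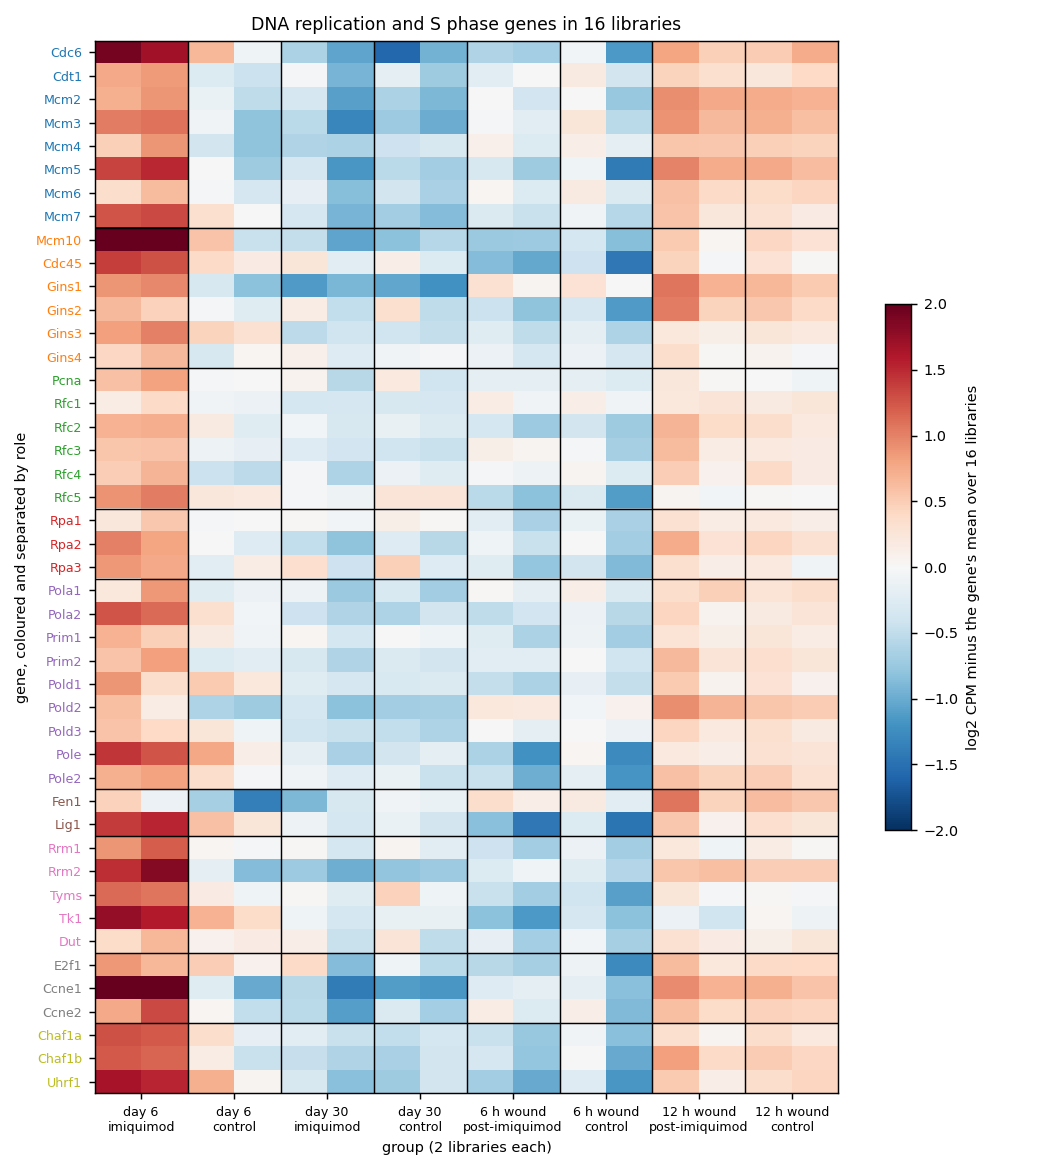
Level of each of the 45 genes (rows, grouped and coloured by role) in each of the 16 libraries (columns, 2 per group), as log2 CPM minus the gene's mean over all libraries; red is above and blue below that mean, and the 3 values beyond the colour limits take the end colour. The day 6 imiquimod columns are the reddest for most genes, and the 12 h wound columns are red for the licensing genes at the top.

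At day 30 the effect of imiquimod was no longer seen at this precision. None of the 45 genes was called in either direction, with 0.00578% of all tested genes called higher and 0.00578% called lower, none had an unadjusted p under 0.05 by edgeR, and DESeq2 called 0. The log2 changes ran from -0.47 for Fen1 to 0.37 for Cdc6, with a median of -0.03. The 95% intervals of 41 genes lay within 1 log2 unit of 0, and those of 40 genes lay below the gene's own change at day 6. Tested directly, the effect of imiquimod at day 6 was larger than that at day 30 for 23 genes and smaller for none, against 13.7% and 8.82% of all tested genes. Without both day 30 libraries numbered 1, each day 30 group holds 1 library, and the count of that fit is given in the closing section. With the replicate number as a block, the count was 36. It fell to 6 without library 2 of day 30 imiquimod, 8 without library 2 of day 6 control, 11 and 13 without library 2 or 1 of day 6 imiquimod and 12 without library 1 of day 30 control. Fibroblast markers summed to 148 and 1.65 CPM in the day 30 imiquimod libraries and to 2.22 and 3.98 CPM in the control libraries, so library 1 of day 30 imiquimod stood apart. Its part in the result was not tested.

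In imiquimod skin itself, 40 genes were lower at day 30 than at day 6 and none was higher, against 24.3% of tested genes called lower and 18.3% called higher, with a median change of -1.21. Without both day 30 libraries numbered 1, 42 were lower. The macrophage markers summed to 2.13 and 1.96 CPM at day 30 and to 49.8 and 56.6 CPM at day 6 of imiquimod, and the fibroblast markers to 148 and 1.65 CPM at day 30 and to 153 and 442 CPM at day 6. Their part in the result was not tested. In control skin the median change was smaller. There, 8 genes were lower at day 30 than at day 6 and none was higher, against 9.45% and 11.8% of tested genes, with a median of -0.30. The 8 were Cdc6, Mcm7, Gins3, Pola2, Pold1, Pold3, Tk1 and Uhrf1, led by Cdc6 with -1.56 ± 0.37 (log2 change ± SE). The control count moved with the setting. It was 13 with the replicate block (12 lower and 1 higher), 2 without both day 30 libraries numbered 1, and 0, 2 and 4 without library 1 of day 6 control, library 1 of day 30 control or library 2 of day 30 control. The 6 fibroblast markers summed to 2.22 and 3.98 CPM in day 30 control skin and to 151 and 497 CPM in day 6 control skin, and their part in the result was not tested.

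Wounds were compared with unwounded day 30 skin of the same treatment to follow the genes through the first hours of repair. At 12 h of wounding, 29 of the 45 genes were higher in post-imiquimod skin and none was lower, against 20.3% and 17.3% of tested genes, with a median log2 change of 0.74. In control skin 24 genes were higher at 12 h and none was lower, against 16.5% and 14.3% of tested genes, with a median of 0.69. These comparisons share no library, and 23 genes were called in both, which is 79.3% of the post-imiquimod list and 95.8% of the control list, against 70.1% and 86.7% over all tested genes. Both were tested in 1 fit with a shared estimate of each gene's spread. With most of the 45 genes on each list, a large shared part also follows from the list sizes. The control count was 14 without both day 30 libraries numbered 1, 15 and 12 without library 1 or 2 of day 30 control, and 12 and 10 without library 1 or 2 of the 12 h control wounds. The post-imiquimod count was 26 without both day 30 libraries numbered 1, 13 without library 2 of day 30 imiquimod and 14 without library 1 of the 12 h post-imiquimod wounds. The macrophage markers summed to 10.1 and 14.6 CPM in 12 h post-imiquimod wounds, against 2.13 and 1.96 CPM in day 30 imiquimod skin, and to 9.25 and 9.4 CPM in 12 h control wounds, against 2.03 and 1.53 CPM in day 30 control skin. Mrc1 carried most of this, with 7.2 and 11.5 CPM in 12 h post-imiquimod and 5.23 and 6.36 CPM in 12 h control wounds, against at most 0.0453 CPM at day 30. The Langerhans and dendritic cell list summed to 62.9 and 52.7 CPM in 12 h post-imiquimod wounds, against 39.1 and 18.2 CPM in day 30 imiquimod skin, and to 25.9 and 16.2 CPM in 12 h control wounds, against 22.4 and 7.14 CPM in day 30 control skin. Cd74, H2-Aa and H2-Ab1 carried these sums. The Langerhans marker Cd207 had 0.441 and 0.343 CPM in 12 h post-imiquimod wounds, against 1.36 and 0.31 CPM in day 30 imiquimod skin. It had 0.285 and 0.248 CPM in 12 h control wounds, against 0.52 and 0.265 CPM in day 30 control skin. Thy1, listed as a T cell marker, had 423 and 349 CPM in 12 h post-imiquimod wounds, against 179 and 117 CPM in day 30 imiquimod skin, and 356 and 314 CPM in 12 h control wounds, against 238 and 98.3 CPM in day 30 control skin, while the other 5 genes of its list stayed below 1 CPM. Their part in the result was not tested.

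At 6 h few of the genes were called, in both directions. In post-imiquimod skin Mcm4, Gins1, Rfc1, Pold2 and Rrm2 were higher than at day 30 and Cdc45, Rfc5, Lig1 and Tk1 were lower, which is 5 and 4 genes against 20.1% and 18.6% of tested genes. In control skin Gins1, Rfc1, Pold2 and Pold3 were higher and Rfc5 and Tyms were lower, which is 4 and 2 genes against 18% and 16.7% of tested genes. Both shares lie below those of all tested genes, and the medians were 0.06 in post-imiquimod and 0.08 in control skin. With the replicate number as a block, 11 genes were higher and 12 lower in post-imiquimod skin, and 8 higher and 9 lower in control skin. Without both day 30 libraries numbered 1, 8 genes were higher and none lower in post-imiquimod skin. The post-imiquimod counts together came to 3 without library 2 of day 30 imiquimod and 4 without library 2 of the 6 h post-imiquimod wounds. In control skin 2 were higher and 9 lower without library 1 of the 6 h wounds, and 3 genes were called without both day 30 libraries numbered 1. The macrophage markers summed to 6.31 and 5.37 CPM in 6 h post-imiquimod and 9.75 and 5.95 CPM in 6 h control wounds, against at most 2.13 CPM at day 30. Hair matrix and shaft markers summed to 75.1 CPM in library 2 of the 6 h control wounds and to 9.79 CPM in library 1, and their part in the result was not tested.

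Between the 2 wound times every gene stood higher at 12 h than at 6 h. In both treatments all 45 changes were positive and in all 45 genes both 12 h libraries lay above both 6 h libraries, as in 24.7% of all tested genes in post-imiquimod and 28.3% in control skin. The median was 0.70 in post-imiquimod skin and 0.59 in control skin, against 0.01 and 0 over all tested genes. No gene passed adjustment over all genes in either treatment by edgeR, while 37 genes in post-imiquimod and 33 in control skin had an unadjusted p under 0.05. Few genes of the whole table passed: 0.15% were called higher and 0.0231% lower in post-imiquimod skin, and 0.486% and 0.162% in control skin. By DESeq2, 15 genes were higher at 12 h in post-imiquimod and 10 in control skin, and with the replicate block in edgeR the counts were 23 and 22, all of them higher. Without library 1 of the 6 h control wounds, 3 were called in control skin.

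Wounds of post-imiquimod skin were set against wounds of control skin to ask whether the earlier inflammation changed the response. No replication gene was called between post-imiquimod and control wounds at 6 h (0.0231% of tested genes were called higher and 0.0116% lower) or at 12 h (0% and 0%). The unadjusted p was under 0.05 for 1 gene at 6 h, Tk1, with -0.42 ± 0.19, and for none at 12 h, where 37 of the 45 changes were positive with a median of 0.09. The difference between the wound effects of the treatments was called for no gene at 6 h (0% of tested genes higher and 0% lower) or at 12 h (0% and 0%), with no unadjusted p under 0.05 by edgeR. DESeq2, the replicate block and the other alternatives also gave 0 in these 4 comparisons. The 95% intervals between the treatments lay within 1 log2 unit of 0 for 42 of the 45 genes at 6 h and 44 at 12 h. For the difference of the wound effects this held for 29 genes at 6 h and 33 genes at 12 h. For the others a difference of that size could have been missed. The bounds of this difference at 6 h ran from -1.65 for Cdc6 to 1.86 for Fen1.

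**Figure D2:**
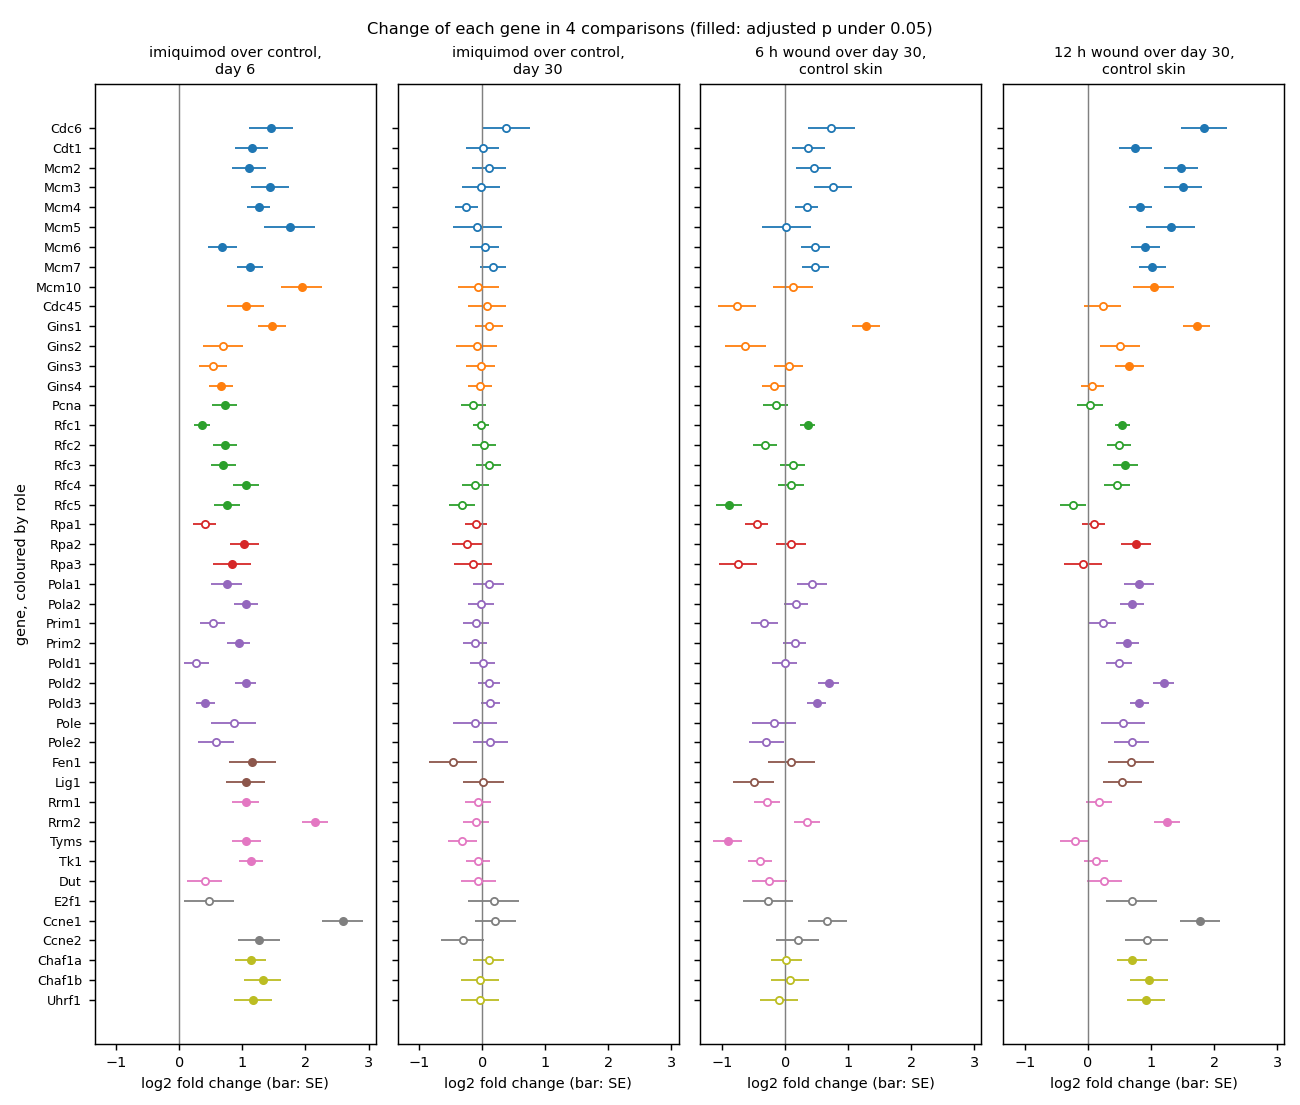
Log2 fold change (points) with its standard error (bars) of each of the 45 genes, coloured by role, in 4 comparisons (imiquimod at day 6 and day 30, and wounds of control skin at 6 h and 12 h); filled points passed an adjusted p under 0.05. At day 6 all points lie right of 0, at day 30 they gather between -0.47 and 0.37, at 6 h they scatter to both sides, and at 12 h Cdc6, Ccne1 and Gins1 lie furthest right.

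Origin licensing changed as a whole. All 8 genes of this role were higher in imiquimod skin at day 6 (0.68 to 1.75), in 12 h post-imiquimod wounds (0.81 to 1.65) and in 12 h control wounds (0.75 to 1.84). Of all tested genes, 21.6%, 20.3% and 16.5% were called higher in these comparisons. Mcm5, a subunit of the helicase ring whose promoter is printed above, had 195 and 219 CPM in day 6 imiquimod skin and 76.5 and 46.9 CPM in day 6 control skin. Post-imiquimod skin gave 60.8 and 34.2 CPM at day 30, 61.7 and 46.6 CPM at 6 h and 153 and 128 CPM at 12 h of wounding. Control mice gave 52.6 and 47.5 CPM, 72 and 28.9 CPM and 130 and 117 CPM at the same times. The 12 h libraries were all above the 6 h and day 30 libraries, and those of day 6 imiquimod were above all others. The log2 change was 1.75 ± 0.40 at day 6 (adjusted p = 0.0054 by edgeR), 1.57 ± 0.39 in 12 h post-imiquimod wounds (adjusted p = 0.00972 by edgeR) and 1.31 ± 0.39 in 12 h control wounds (adjusted p = 0.0276 by edgeR).

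Cdc6, the loader of the Mcm ring, reached 17.6 and 15 CPM in day 6 imiquimod skin, against 7.42 and 4.39 CPM in day 6 control skin. Its levels were 2.99 and 2.24 CPM at day 30, 3.06 and 2.92 CPM at 6 h and 8.01 and 6.51 CPM at 12 h in post-imiquimod mice. They were 1.56 and 2.42 CPM, 4.48 and 2.1 CPM and 6.63 and 7.76 CPM in control mice. No 12 h library overlapped a day 30 library. Its log2 change of 1.84 ± 0.37 at 12 h in control skin was the largest of the 45 genes there (adjusted p = 0.00273 by edgeR). At day 6 it was 1.46 ± 0.35, and in 12 h post-imiquimod wounds 1.48 ± 0.37. Mcm2 and Mcm3, further subunits of the ring, changed by 1.48 ± 0.27 and 1.51 ± 0.30 at 12 h in control skin and by 1.11 ± 0.27 and 1.44 ± 0.30 at day 6. Mcm2 was 1 of 4 genes whose group mean was highest in the 12 h post-imiquimod wounds and not in day 6 imiquimod skin, the others being Gins2, Pold2 and Fen1. Cdt1, the partner of Cdc6 in loading, showed smaller changes of 0.81 ± 0.26 and 0.75 ± 0.26 in the 12 h wounds of post-imiquimod and control skin.

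**Figure D3:**
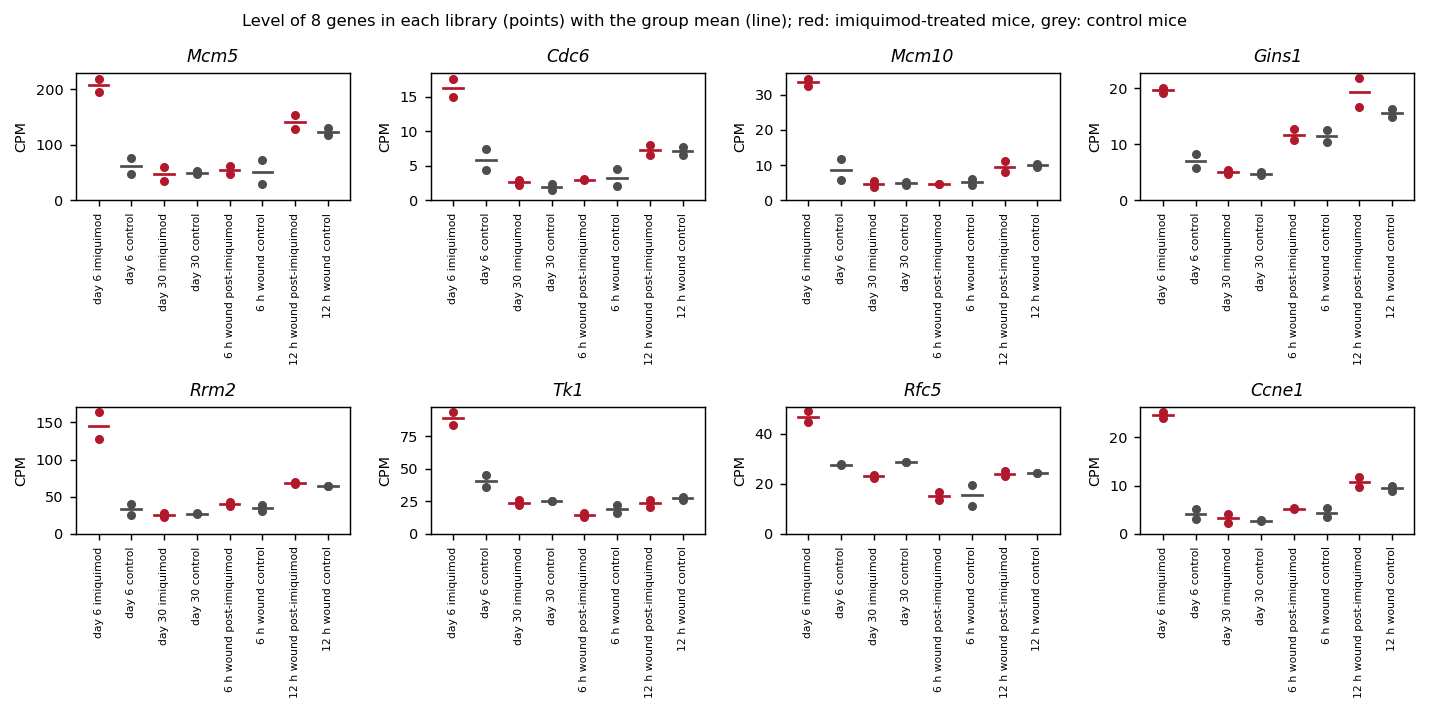
Level (CPM, linear axis from 0) of 8 of the genes in each library (points) with the group mean (line), imiquimod-treated mice in red and control mice in grey. Mcm5, Cdc6, Gins1 and Rrm2 are higher in 12 h wounds than at day 30, while Tk1 and Rfc5 are below their day 30 level at 6 h and near it at 12 h.

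The genes that activate the helicase did not move as 1 set. At day 6, 4 of the 6 were higher in imiquimod skin, against 21.6% of tested genes. At 12 h, 4 were higher in post-imiquimod and 3 in control wounds, against 20.3% and 16.5% of tested genes. Mcm10, which helps the loaded ring to start unwinding, had 34.5 and 32.4 CPM in day 6 imiquimod skin, against 11.6 and 5.71 CPM in day 6 control skin. After imiquimod it stood at 5.61 and 3.75 CPM at day 30, 4.67 and 4.7 CPM at 6 h and 11.2 and 8.01 CPM at 12 h. Control mice had 4.44 and 5.25 CPM, 6.14 and 4.34 CPM and 10.4 and 9.58 CPM. Its day 6 imiquimod libraries were far above every other library, with a log2 change of 1.94 ± 0.32 (adjusted p = 0.000481 by edgeR), and the change at 12 h was 1.04 ± 0.32 in post-imiquimod and 1.04 ± 0.32 in control skin.

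Gins1, a subunit of the GINS complex, was already higher at 6 h. Its levels in post-imiquimod mice were 4.71 and 5.5 CPM at day 30, 12.7 and 10.7 CPM at 6 h and 21.8 and 16.7 CPM at 12 h. Control mice had 5.01 and 4.48 CPM, 12.6 and 10.4 CPM and 16.3 and 14.9 CPM. The 3 times did not overlap in either treatment. The change at 6 h was 1.20 ± 0.22 in post-imiquimod (adjusted p = 0.000986 by edgeR) and 1.28 ± 0.22 in control skin (adjusted p = 0.000848 by edgeR), the largest of the 45 genes at that time. At 12 h it was 1.91 ± 0.22 and 1.72 ± 0.22. At day 6 it had 19.1 and 20.1 CPM in imiquimod skin and 8.25 and 5.83 CPM in control skin, a change of 1.47 ± 0.22.

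Cdc45, the partner of GINS in the active helicase, was called lower at 6 h in post-imiquimod skin alone. It had 6.9 and 6.16 CPM in 6 h post-imiquimod wounds and 14.8 and 10.7 CPM in day 30 imiquimod skin. The change was -0.96 ± 0.30 (adjusted p = 0.0221 by edgeR), a call lost in 4 of 11 alternatives. In 6 h control wounds it had 9.4 and 4.64 CPM, against 13.7 and 10.4 CPM in day 30 control skin, and the change of -0.76 ± 0.30 did not pass (adjusted p = 0.0634 by edgeR). At 12 h its libraries overlapped those of day 30 in both treatments, with 17.1 and 12.2 CPM in post-imiquimod and 15.3 and 12.7 CPM in control wounds. In day 6 imiquimod skin it had 32.7 and 30.4 CPM, against 16.3 and 14 CPM in day 6 control skin, with a change of 1.05 ± 0.29. The other GINS genes changed less: Gins2 passed only in 12 h post-imiquimod wounds among these comparisons (0.89 ± 0.33), Gins4 passed at day 6 (0.66 ± 0.19), and Gins3 passed at 12 h in both treatments (0.62 ± 0.23 and 0.65 ± 0.23).

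All 6 genes of the clamp and its loader were higher in imiquimod skin at day 6 (0.36 to 1.06), against 21.6% of tested genes. In 12 h wounds, 4 were higher in post-imiquimod and 2 in control skin, against 20.3% and 16.5% of tested genes. Pcna, the clamp itself, had 167 and 194 CPM in day 6 imiquimod skin, against 108 and 111 CPM in day 6 control skin, a change of 0.72 ± 0.20 (adjusted p = 0.0147 by edgeR). Its change at 12 h did not pass, with 0.34 ± 0.20 in post-imiquimod and 0.03 ± 0.20 in control skin. Pcna has processed pseudogenes (Pcna-ps1 and Pcna-ps2) that may share its reads. Rfc4, a small subunit of the loader, had the largest change of this role at day 6, with 23 and 26.2 CPM in imiquimod skin and 12.1 and 11.4 CPM in control skin (1.06 ± 0.21, adjusted p = 0.00189 by edgeR). Post-imiquimod libraries held 16.2 and 10.7 CPM at day 30, 16.2 and 15.3 CPM at 6 h and 23 and 17.4 CPM at 12 h. The control series ran at 15.1 and 13.8 CPM, 17.1 and 13.5 CPM and 21.4 and 18.3 CPM. Its day 30 and 6 h libraries overlapped in both treatments.

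Rfc1 and Rfc5, the large subunit and a small subunit of the same loader, were called in opposite directions at 6 h. Rfc1 had 66.4 and 67.5 CPM at day 30, 93.8 and 80.6 CPM at 6 h and 98 and 101 CPM at 12 h in post-imiquimod mice, and 67.9 and 67.5 CPM, 92.5 and 80.7 CPM and 96.2 and 100 CPM in control mice. Every wound library lay above every day 30 library. Rfc5 had 23.6 and 22.2 CPM, 16.5 and 13.5 CPM and 24.9 and 22.9 CPM in post-imiquimod mice, and 28.5 and 28.7 CPM, 19.6 and 11 CPM and 24.2 and 24.1 CPM in control mice, with every 6 h library below those of day 30. At 6 h Rfc1 changed by 0.38 ± 0.12 in post-imiquimod (adjusted p = 0.0265 by edgeR) and 0.36 ± 0.12 in control skin (adjusted p = 0.0398 by edgeR). Rfc5 changed by -0.60 ± 0.21 (adjusted p = 0.0362 by edgeR) and -0.89 ± 0.21 (adjusted p = 0.00561 by edgeR). These calls depended on the setting. Of 11 alternatives, the Rfc1 call was lost in 6 in post-imiquimod and 7 in control skin, and the Rfc5 call in 7 and 2. At day 6 both were higher in imiquimod skin: Rfc1 had 93.9 and 110 CPM, against 80.4 and 78.3 CPM in control skin, and Rfc5 had 44.4 and 48.8 CPM, against 27.9 and 27.3 CPM.

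Rfc3, whose promoter is printed above, had 33.1 and 33.7 CPM in day 6 imiquimod skin and 21 and 20.2 CPM in day 6 control skin (0.70 ± 0.20). Its post-imiquimod levels were 19 and 17.3 CPM at day 30, 24.6 and 23.6 CPM at 6 h and 35.2 and 25.2 CPM at 12 h. Control mice gave 17.2 and 16.7 CPM, 22.3 and 14.3 CPM and 25.8 and 25.3 CPM. It was higher at 12 h in both, with no overlap with day 30, by 0.73 ± 0.20 in post-imiquimod and 0.59 ± 0.20 in control skin.

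Of the 3 RPA genes, whose complex coats single strands at the fork, Rpa2 and Rpa3 were higher in imiquimod skin at day 6. Rpa2 alone passed at 12 h. The shares of tested genes called higher were 21.6% at day 6, and 20.3% and 16.5% in 12 h post-imiquimod and control wounds. Rpa2 had 53.6 and 46.4 CPM in day 6 imiquimod skin, against 26.6 and 22.4 CPM in day 6 control skin (1.03 ± 0.23, adjusted p = 0.00423 by edgeR). In post-imiquimod mice its levels were 19.1 and 15.4 CPM at day 30, 25.3 and 19.7 CPM at 6 h and 44.9 and 32.8 CPM at 12 h. In control mice they were 22.5 and 18.3 CPM, 26.7 and 16.6 CPM and 36.2 and 32.9 CPM. The 12 h libraries lay above all those of day 30 and 6 h, with changes from day 30 of 1.17 ± 0.24 and 0.76 ± 0.24 in post-imiquimod and control skin. The large subunit gene Rpa1 changed by 0.24 ± 0.18 and 0.09 ± 0.18 there, and Rpa3 by 0.22 ± 0.30 and -0.08 ± 0.30.

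Of the 9 polymerase and primase genes, 5 were higher in imiquimod skin at day 6, 6 in 12 h post-imiquimod and 5 in 12 h control wounds. The shares of tested genes were 21.6%, 20.3% and 16.5%. Pola2, a subunit of the polymerase that starts each strand, had 45.2 and 41.3 CPM in day 6 imiquimod skin and 23.5 and 18.2 CPM in day 6 control skin (1.05 ± 0.19, adjusted p = 0.00106 by edgeR). Its levels in post-imiquimod mice were 14.2 and 12.4 CPM at day 30, 13.3 and 14.4 CPM at 6 h and 25.3 and 19.8 CPM at 12 h. They were 12.3 and 14.6 CPM, 17.4 and 12.8 CPM and 21.3 and 22.5 CPM in control mice. It overlapped day 30 at 6 h and was clear of it at 12 h. Pold2, an accessory subunit of the lagging strand polymerase, was the gene of this role with the largest change at 12 h. The post-imiquimod series ran at 41.2 and 30 CPM at day 30, 61 and 60.6 CPM at 6 h and 100 and 84.8 CPM at 12 h, and in control mice 32.7 and 33.4 CPM, 50.5 and 56 CPM and 77.3 and 75.1 CPM. All its wound libraries lay above all day 30 libraries, and the change at 12 h was 1.38 ± 0.17 in post-imiquimod (adjusted p = 9.08e-05 by edgeR) and 1.20 ± 0.17 in control skin (adjusted p = 0.000324 by edgeR). Its day 6 levels were 79.8 and 58.2 CPM in imiquimod skin and 34.4 and 32.2 CPM in control skin. The catalytic subunit genes Pold1 and Pole did not pass at day 6, with 0.27 ± 0.20 and 0.86 ± 0.35.

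Fen1 and Lig1, the nuclease and the ligase that finish Okazaki fragments, were both higher in imiquimod skin at day 6, against 21.6% of tested genes. Fen1 had 2.66 and 1.78 CPM in imiquimod skin, against 1.22 and 0.751 CPM in control skin (1.16 ± 0.37, adjusted p = 0.0257 by edgeR). With earlier imiquimod the levels were 1.04 and 1.55 CPM at day 30, 2.47 and 2.13 CPM at 6 h and 4.09 and 2.65 CPM at 12 h, and in control mice 1.84 and 1.77 CPM, 2.2 and 1.65 CPM and 2.98 and 2.82 CPM. These levels rest on 23 to 205 reads per library, and the span of Fen1 overlaps that of Tmem258, so its counts may miss reads that fall in both. Lig1 had 110 and 120 CPM in day 6 imiquimod skin, against 62.4 and 49.4 CPM in day 6 control skin (1.05 ± 0.31). In 6 h post-imiquimod wounds it was lower, with 23.5 and 15.5 CPM against 39.1 and 32.6 CPM in day 30 imiquimod skin. The change was -0.87 ± 0.32 (adjusted p = 0.0482 by edgeR), a call lost in 5 of 11 alternatives.

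Of the 5 nucleotide supply genes, 4 were higher in imiquimod skin at day 6, against 21.6% of tested genes. At 12 h only Rrm2 passed in either treatment. That is 1 of 5 genes, near the 20.3% and 16.5% of tested genes called higher in post-imiquimod and control wounds. The 12 other nucleotide genes listed below went otherwise, with 7, 9 and 7 called higher in these 3 comparisons. In the direct test given below, only Tyms and Tk1 of this role differed between day 6 and 12 h control wounds. Rrm2, the regulated subunit of the enzyme that makes deoxynucleotides, had 127 and 164 CPM in day 6 imiquimod skin and 40.6 and 25.1 CPM in day 6 control skin. Its change of 2.15 ± 0.21 had the smallest p of the 45 genes at day 6 (adjusted p = 1.9e-05 by edgeR). Post-imiquimod skin gave 27.6 and 23.2 CPM at day 30, 38 and 43.5 CPM at 6 h and 67.7 and 69.9 CPM at 12 h. Control mice had 26.5 and 27.8 CPM, 38.8 and 30.5 CPM and 64.5 and 64.2 CPM, and in both treatments the 3 times did not overlap. The 12 h changes were 1.44 ± 0.21 and 1.25 ± 0.21 in post-imiquimod and control skin.

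Tk1, thymidine kinase, had 93.7 and 83.7 CPM in day 6 imiquimod skin, against 45.1 and 35.8 CPM in day 6 control skin (1.13 ± 0.19, adjusted p = 0.000579 by edgeR). After imiquimod it stood at 26.2 and 21.9 CPM at day 30, 15.7 and 12.6 CPM at 6 h and 25.7 and 21 CPM at 12 h. Control mice gave 25 and 25.2 CPM, 22.1 and 15.8 CPM and 28.6 and 26 CPM. Within each treatment both 6 h libraries were below both day 30 libraries, and the 12 h levels were near those of day 30. The 6 h change was -0.76 ± 0.19 in post-imiquimod (adjusted p = 0.00717 by edgeR) and -0.40 ± 0.19 in control skin (adjusted p = 0.122 by edgeR). Tyms, thymidylate synthase, was likewise higher in imiquimod skin at day 6 (1.06 ± 0.23) and lower in 6 h control wounds (-0.91 ± 0.23). Its 6 h call was lost in 4 of 11 alternatives, and it has a pseudogene (Tyms-ps) that may share its reads. Rrm1, the large subunit that pairs with Rrm2, changed by 1.05 ± 0.21 at day 6 and by 0.22 ± 0.21 and 0.17 ± 0.21 in the 12 h wounds of post-imiquimod and control skin, which did not pass.

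Ccne1, the cyclin E1 gene that opens S phase, had the largest change of the 45 genes at day 6. It had 25.2 and 24.1 CPM in imiquimod skin, against 5.11 and 3.03 CPM in control skin, a log2 change of 2.59 ± 0.32 (adjusted p = 6.92e-05 by edgeR). Post-imiquimod libraries held 4.12 and 2.3 CPM at day 30, 5.05 and 5.37 CPM at 6 h and 11.7 and 9.78 CPM at 12 h. Control skin gave 2.79 and 2.71 CPM, 5.27 and 3.41 CPM and 9.87 and 8.96 CPM. The 12 h libraries were above the rest of the wound series and below day 6 imiquimod, with changes from day 30 of 1.75 ± 0.31 and 1.77 ± 0.32 in post-imiquimod and control skin. Its paralog Ccne2 was higher at day 6 (1.26 ± 0.33) and in 12 h post-imiquimod wounds (1.28 ± 0.34), and fell just short in 12 h control wounds (0.93 ± 0.34, adjusted p = 0.0512 by edgeR). E2f1, an activating E2F gene, did not pass in any of these comparisons, with 0.47 ± 0.39 at day 6 and 0.55 ± 0.40 and 0.69 ± 0.40 at 12 h in post-imiquimod and control skin.

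The 3 chromatin genes were higher in imiquimod skin at day 6 and in 12 h control wounds, against 21.6% and 16.5% of tested genes. In 12 h post-imiquimod wounds 2 of them were higher, against 20.3% of tested genes. Chaf1b, a subunit of the chaperone that lays down histones behind the fork, had 37 and 35.1 CPM in day 6 imiquimod skin, against 17.4 and 11.5 CPM in day 6 control skin (1.32 ± 0.30, adjusted p = 0.00389 by edgeR). Its post-imiquimod levels were 11.4 and 10.4 CPM at day 30, 12.5 and 9.24 CPM at 6 h and 27.7 and 20.5 CPM at 12 h. Control mice had 10 and 12.2 CPM, 15.7 and 7.83 CPM and 22.4 and 20.9 CPM. All 12 h libraries lay above all libraries of day 30 and 6 h, with changes from day 30 of 1.14 ± 0.30 and 0.96 ± 0.30 in post-imiquimod and control skin. Uhrf1, which brings the maintenance methyltransferase to newly copied DNA, changed by 1.17 ± 0.30 at day 6 and by 0.89 ± 0.30 and 0.92 ± 0.30 in the 12 h wounds.

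**Figure D4:**
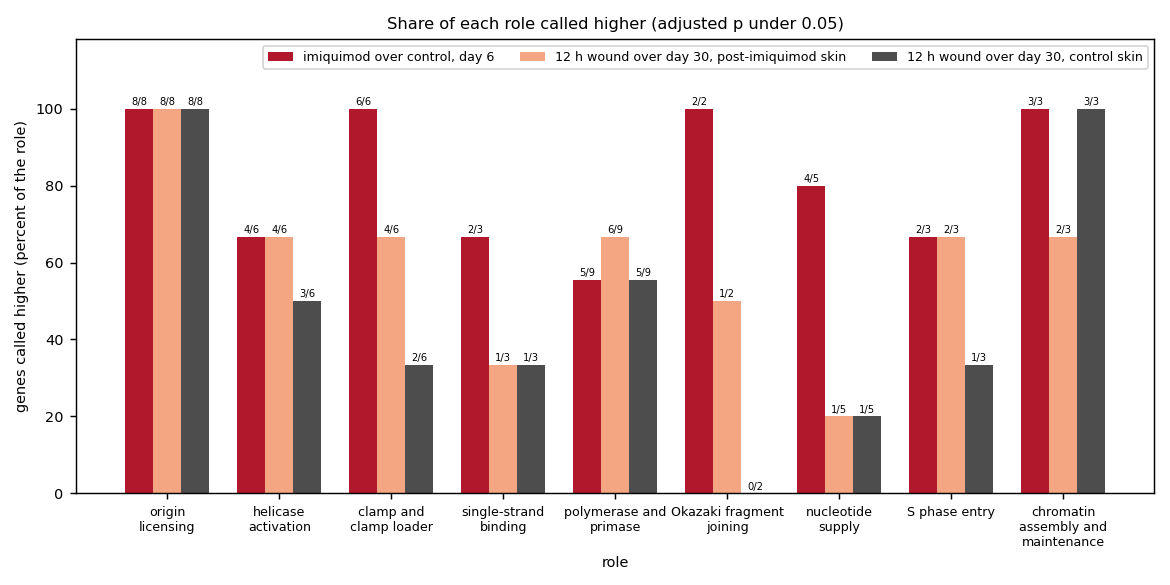
Percent of the genes of each role called higher (adjusted p under 0.05) in imiquimod skin at day 6 (red), in 12 h wounds of post-imiquimod skin (orange) and in 12 h wounds of control skin (grey), with the number called over the number in the role above each bar. Licensing is full in all 3, while nucleotide supply is at 4 of 5 in inflamed skin and 1 of 5 in both kinds of wound. Of all tested genes, 21.6%, 20.3% and 16.5% were called higher in the same order of comparisons.

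The called genes of inflamed skin and of 12 h wounds were set side by side. Of the 36 genes higher at day 6, 23 were also higher in 12 h control wounds, which is 63.9% of the day 6 list and 95.8% of the wound list, and 26 were also higher in 12 h post-imiquimod wounds, which is 72.2% and 89.7%. The day 6 comparison shares no library with either wound comparison. Over all tested genes, the shared part was 45.6% of the day 6 list and 60% of the control wound list, and 59.9% of the day 6 list and 63.7% of the post-imiquimod wound list. With most of the 45 genes on each list, a large shared part follows from the list sizes, and nothing particular to these genes is read from it. In all 3 comparisons 22 genes were called. The genes called in none of the 3 were Rpa1, Prim1, Pole, Pole2, Dut and E2f1. The difference between the day 6 effect of imiquimod and the 12 h wound effect in control skin was tested directly, a comparison added after the values were seen. It was larger at day 6 for 3 genes, Tyms (1.27 ± 0.32), Tk1 (1.01 ± 0.27) and Rfc5 (1.00 ± 0.29), and larger in wounds for none, against 5.95% and 5.24% of tested genes. The count was 8 with the replicate block and 0 without both day 30 libraries numbered 1. It was also 0 without library 2 of either day 6 group, library 1 of day 30 control or either 12 h control wound library, and 1 without library 1 of day 6 imiquimod. Scaled by library totals alone, these 3 genes no longer passed and 2 others were called in the opposite direction.

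Mitosis genes, listed as companions of the replication genes, moved with them in inflamed skin and against them in wounds. At day 6, 17 of 20 mitosis genes were higher in imiquimod skin and none was lower, against 21.6% and 15% of tested genes. The median log2 change was 1.07. At 12 h of wounding none was higher and 17 were lower in post-imiquimod skin (median -0.95), against 20.3% and 17.3% of tested genes. In control skin none was higher and 10 were lower (median -0.69), against 16.5% and 14.3% of tested genes. At 6 h, 9 were lower in post-imiquimod skin, against 18.6% of tested genes. None passed in control skin, where 18% of tested genes were higher and 16.7% lower. In control skin 6 mitosis genes had an unadjusted p under 0.05 by edgeR. There DESeq2 called 1 lower, the replicate block 5 and the fit without library 1 of the 6 h control wounds 10. The 9 came to 3 without library 1 of day 30 imiquimod or either 6 h post-imiquimod wound library, and to 4 without both day 30 libraries numbered 1. Leaving out 1 library gave 9 to 17 higher at day 6, 8 to 18 lower in 12 h post-imiquimod wounds and 3 to 7 lower in 12 h control wounds, the lowest without library 2 of day 6 control, library 2 of the 12 h post-imiquimod wounds and either 12 h control wound library. The count was also 9 without library 1 of day 30 imiquimod in 12 h post-imiquimod wounds, and 6 without library 2 of day 30 control in 12 h control wounds. Without both day 30 libraries numbered 1, the 12 h counts were 9 and 8 in post-imiquimod and control skin, and with library totals alone they were 15 and 5.

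Mki67, which marks cycling cells, had 601 and 635 CPM in day 6 imiquimod skin, against 369 and 245 CPM in day 6 control skin. The post-imiquimod series ran at 189 and 176 CPM at day 30, 105 and 87.4 CPM at 6 h and 85 and 66 CPM at 12 h, and in control mice 179 and 187 CPM, 180 and 92 CPM and 116 and 103 CPM. All its 12 h libraries were below all those of day 30, and the log2 change passed in post-imiquimod skin (-1.27 ± 0.27, adjusted p = 0.00285 by edgeR) but not in control skin (-0.75 ± 0.27, adjusted p = 0.0506 by edgeR). Nusap1, which bundles spindle microtubules, showed the largest fall, -1.62 ± 0.28 and -1.16 ± 0.28 in post-imiquimod and control wounds. Ccnb1 and Cdk1, the cyclin and kinase of mitotic entry, changed by -1.07 ± 0.28 and -0.75 ± 0.23 in post-imiquimod wounds. Plk1, a mitotic kinase, had the largest day 6 change (1.5 ± 0.28) and did not pass at 12 h (-0.27 ± 0.29 and 0.16 ± 0.29 in post-imiquimod and control skin). Tested directly, 19 of the 20 mitosis genes had a larger effect of imiquimod at day 6 than of the 12 h wound in control skin. This held for 3 of the 45 replication genes and 5.95% of all tested genes. The medians were 1.66 for mitosis and 0.32 for replication genes. That mitosis count was 9 without library 2 of day 6 control or library 2 of the 12 h control wounds, 11 without library 2 of day 6 imiquimod or library 1 of the 12 h control wounds, 12 without library 2 of day 30 control, and 11 with library totals alone.

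**Figure D5:**
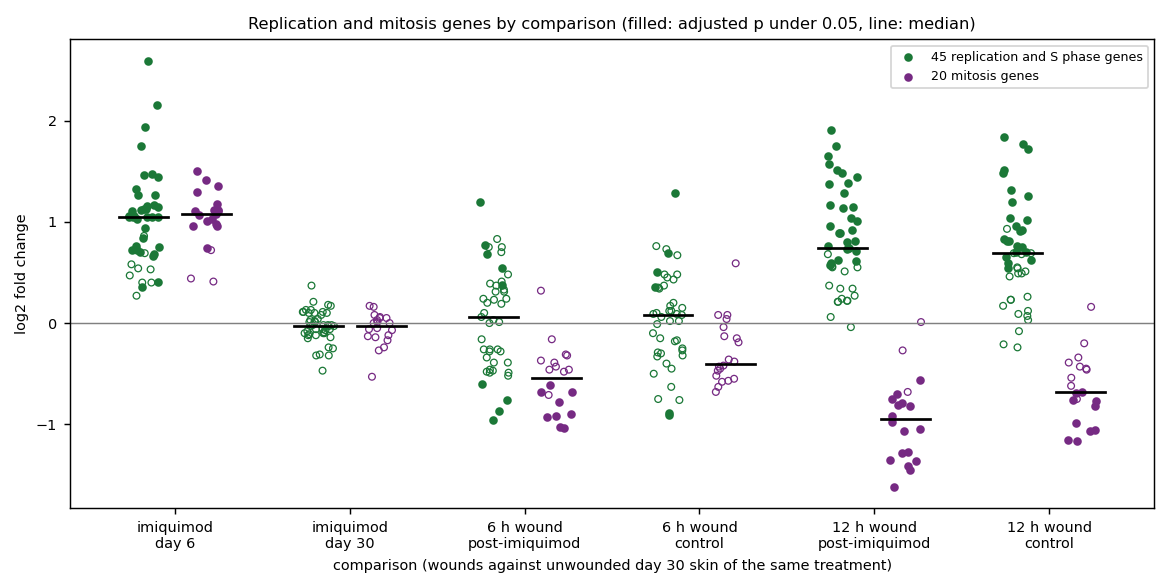
Log2 fold change of each of the 45 replication genes (green) and 20 mitosis genes (purple) in 6 comparisons, with filled points past an adjusted p under 0.05 and a line at the median of each set. Both medians lie near 1.05 at day 6 and near 0 at day 30, and at 12 h of wounding the replication medians are 0.74 and 0.69 while the mitosis medians are -0.95 and -0.69.

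The other companion lists were read in the same 3 comparisons. For every list, the shares of all tested genes to set beside the counts were 21.6% higher and 15% lower at day 6. They were 20.3% and 17.3% in 12 h post-imiquimod wounds, and 16.5% and 14.3% in 12 h control wounds. Of 17 further licensing and initiation genes, 11 were higher and 1 lower in imiquimod skin at day 6, 8 higher and 1 lower in 12 h post-imiquimod wounds, and 6 higher and 0 lower in 12 h control wounds. Orc1, the large subunit of the origin recognition complex, led at day 6 with 2.24 ± 0.46 and at 12 h with 1.63 ± 0.46 and 1.29 ± 0.45, while Mcm9 was the gene called lower (-0.48 ± 0.15 at day 6). Of 18 fork protection and checkpoint genes, 11 were higher and 1 lower at day 6, 5 higher and 1 lower in post-imiquimod wounds, and 6 higher and 1 lower in control wounds. Timeless, a fork protection factor, had the largest rise in both kinds of wound (1.42 ± 0.28 and 1.73 ± 0.28). The gene called lower in all 3 was Wee1, the kinase that holds back mitosis, with -1.53 ± 0.35 at day 6 and -2.11 ± 0.36 and -1.89 ± 0.36 in the wounds of post-imiquimod and control skin.

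Of 12 other nucleotide genes, 7 were higher and 1 lower at day 6, 9 higher and 0 lower in 12 h post-imiquimod wounds, and 7 higher and 0 lower in 12 h control wounds. The pyrimidine synthesis genes Cad (1.74 ± 0.19 and 1.81 ± 0.19) and Ctps (1.21 ± 0.18 and 1.30 ± 0.18) led in both kinds of wound. Rrm2b, a p53-dependent relative of Rrm2, was the gene called lower at day 6 (-0.81 ± 0.23). Of 17 other polymerase and strand processing genes, 8 were higher and 3 lower at day 6, 6 higher and 2 lower in post-imiquimod wounds, and 4 higher and 1 lower in control wounds. Rev3l, of a translesion polymerase, was lower in all 3 (-0.85 ± 0.27, -1.31 ± 0.27 and -1.23 ± 0.27). Of 14 other chromatin replication genes, 9, 7 and 6 were higher in the same order and none was lower, with Hells, a chromatin remodeler, at 1.49 ± 0.39, 1.37 ± 0.39 and 1.37 ± 0.39.

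The 21 E2F, RB and G1-S regulators were called in both directions. At day 6, 11 were higher and 2 lower, against 21.6% and 15% of tested genes. In 12 h post-imiquimod wounds 7 were higher and 6 lower, against 20.3% and 17.3%. In 12 h control wounds 7 were higher and 5 lower, against 16.5% and 14.3%. E2f7, an E2F repressor, was higher in all 3, with 1.57 ± 0.38 at day 6 and 1.77 ± 0.38 and 1.37 ± 0.38 in post-imiquimod and control wounds. Cdkn1a, the p21 inhibitor of cyclin-dependent kinases, had 227 and 269 CPM in 12 h post-imiquimod wounds, against 869 and 697 CPM in day 30 imiquimod skin, and 273 and 270 CPM in 12 h control wounds, against 780 and 786 CPM in day 30 control skin. Its 12 h wound libraries lay far below those of day 30, by -1.66 ± 0.29 (adjusted p = 0.000837 by edgeR) and -1.53 ± 0.29 (adjusted p = 0.00193 by edgeR). Unwounded day 6 skin had 220 and 281 CPM with imiquimod and 308 and 298 CPM with the control cream. The 12 h wound levels were thus near those of day 6, and the day 30 levels stood above both. Rbl2, an RB relative that holds E2F targets silent, was lower in all 3 comparisons (-0.55 ± 0.17, -0.76 ± 0.17 and -0.57 ± 0.17).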

How the data were processed

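Counts per gene for 16 RNA-seq libraries were used as deposited by the authors, who used STAR and Bowtie with the mm10 build, per the submitters' processing notes. The deposited tables hold 1 count per gene and library. The step each tool served and the strand setting of the counting are not stated in the labels or files, so reads of overlapping genes on opposite strands cannot be told apart. ATAC-seq samples were not used. The members and companion lists were chosen with earlier results of these data known.

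Genes were filtered with edgeR's filterByExpr, scaled by TMM and fitted in 1 model of 8 groups (edgeR 4.0.16, limma 3.58.1, R 4.3.3; quasi-likelihood test, 8 residual degrees of freedom). P-values were adjusted by Benjamini-Hochberg over 17299 genes per comparison. There were 15 comparisons and 1 added after the values were seen. Log2 changes stand with their standard errors. With 2 libraries against 2, an exact permutation test cannot go below 0.333, so none is given. The fit was tested on simulated data. Alternatives were DESeq2 1.42.0, RLE and library-total scaling, no filter, a replicate block, fits on the compared libraries alone, leaving out each library, and leaving out both day 30 libraries numbered 1.

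For the replicate block, library numbers were taken to pair libraries within a time point. Deviations of same-numbered libraries correlated at 0.213 (day 6), 0.4 (day 30), 0.518 (6 h) and 0.313 (12 h), against a median of -0.044 between times. The main fit holds no block, so its counts do not use this pairing, and the counts with the block are given beside them where they moved. Values in every library were given, within each role, for the genes with the largest change at day 6 and at 12 h in control skin and for those that passed against the direction of the called members of their role. Companion genes were named for the largest change of a list in either direction, and the remaining named genes were chosen after their values were seen. The common biological coefficient of variation was 23%.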

Additional observations from a re-analysis of the deposited data

Results flagged for a closer look

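The effect of imiquimod at day 6 differed from that at day 30, by a direct test of the difference, for 23 of the 45 genes. The day 6 minus day 30 differences were 2.37 for Ccne1, 2.24 for Rrm2, 2.00 for Mcm10, 1.82 for Mcm5, 1.63 for Fen1 and 1.58 for Ccne2 on the log2 scale. Those of Mcm4, Mcm3, Tyms, Gins1, Chaf1b and Rpa2 were 1.51, 1.46, 1.37, 1.36, 1.34 and 1.27. Tk1, Rfc4, Cdt1, Rrm1, Rfc5, Pola2 and Prim2 gave 1.19, 1.17, 1.14, 1.12, 1.08, 1.07 and 1.07. The smallest were 1.04 for Chaf1a, 0.95 for Mcm7, 0.94 for Pold2 and 0.86 for Pcna.

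Y-linked genes, which enter no comparison here, had 6048 reads in day 30 imiquimod library 1 and 7847 reads in day 30 control library 1, against the female label of both mice.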

How the results depend on the processing

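No called change of a single gene reversed under an alternative. Of 178 called gene results, DESeq2 and the replicate block kept 178 each and RLE scaling kept 171. Library totals kept 143, no filter 169 and fits on the compared libraries alone 136. Leaving out 1 library at a time, or both day 30 libraries numbered 1, leaves 1 library in at least 1 group. Calls were lost in both kinds of fit. In both, fewer libraries entered the fit.

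Library totals moved the median of all genes by more than 0.1 in several comparisons, to -0.107 at day 6 and -0.357 in day 6 minus the 12 h wound effect. The count of replication genes was then 24 at day 6, 15 for day 30 against day 6 in control skin and 6 for day 6 minus day 30. No filter gave 11 for the 6 h wound effect in control skin, 26 and 19 for 12 h against 6 h in post-imiquimod and control wounds, and 5 for day 6 minus the 12 h wound effect. The replicate block gave 23 and 17 for the 6 h wound effect in post-imiquimod and control skin, 23 and 22 for 12 h against 6 h in post-imiquimod and control wounds, 13 for day 30 against day 6 in control skin, 36 for day 6 minus day 30 and 8 for day 6 minus the 12 h wound effect, and it moved no other count of the 45 genes by over 1.5 times. DESeq2 gave 15 and 10 for 12 h against 6 h in post-imiquimod and control wounds and 5 for day 6 minus the 12 h wound effect. Fits on the compared libraries alone gave 2 for the 6 h wound effect in control skin, 4 and 1 for 12 h against 6 h in post-imiquimod and control wounds, 1 for day 30 against day 6 in control skin and 10 for day 6 minus day 30. Without both day 30 libraries numbered 1, the counts were 3 and 14 for the 6 h and 12 h wound effects in control skin, 2 for day 30 against day 6 in control skin, 11 for day 6 minus day 30 and 0 for day 6 minus the 12 h wound effect. The cause of these moves was not tested.

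Leaving out each library in turn gave 18 to 30 genes at day 6, 3 to 9 and 13 to 28 for the 6 h and 12 h wound effects in post-imiquimod skin, 4 to 11 and 10 to 15 in control skin, 33 to 41 and 0 to 8 for day 30 against day 6 in imiquimod and control skin, 6 to 21 for day 6 minus day 30, 0 to 0 and 0 to 3 for 12 h against 6 h in post-imiquimod and control wounds, and 0 to 2 for day 6 minus the 12 h wound effect. Scaling by library totals moved 68 of the 360 group means of the genes' levels by more than 1 SD. With 2 libraries a group, small changes could have been missed.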
